A study of Rattus norvegicus with 16 samples.

Results

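Cells sorted for the surface receptor TRKA from cultures of rat olfactory mucosa were set against cells sorted for CD90 (Thy1) from the same kind of culture. The comparison takes the 4 arrays titled TRKA and the 4 titled CD90, chosen by their titles, out of 16 arrays in all. The other 8 arrays, p75 cells and TRKA cells induced with TGF-a (TRKA-TGF), enter the shared estimate of spread and are otherwise given only side by side. The animals were male Fischer rats in every group, the CD90, p75 and TRKA cells were grown under 1 culture protocol with no further treatment named, and each population was sorted by flow cytometry before lysis. Each group holds 4 biological replicates, but the labels do not say which replicates came from the same animals or cultures, nor the rats' age or the days in culture. The mRNA was isolated on magnetic beads, its cDNA was amplified by a global PCR, and all samples were labelled with Cy3 and hybridised to 1-colour Agilent rat arrays. The purity of each sort was measured by the submitters for the sorted protein, which does not name a cell type.

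Macrophages are phagocytes that arise from embryonic or bone marrow progenitors, live on signals through the colony stimulating factor 1 receptor, and take up and digest dead cells, microbes and lipid in lysosomes. Fibroblasts and related mesenchymal cells build the connective tissue: they secrete collagens, proteoglycans and growth factors, and CD90 is one of the surface proteins used to sort them. The olfactory mucosa holds both, below and around an epithelium of sensory neurons whose axons are wrapped by p75-bearing olfactory ensheathing glia. Cultures of this tissue therefore mix cell types, and a surface sort leaves each fraction as a bulk sample.

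A level below is the log2 of an array's background-subtracted signal minus the log2 signal at that array's 75th percentile over probes that are not controls, so 0 is the 75th percentile. A difference is the TRKA mean minus the CD90 mean, and a gene was called at a Benjamini-Hochberg adjusted p under 0.05 from limma over all genes tested. Levels of different genes come from different probes and are not compared. The TRKA arrays were well above background at 54.5% ± 2.60 (SD, n = 4) of their spots and the CD90 arrays at 71.3% ± 0.80 (SD, n = 4), a difference of −16.8 percentage points with no overlap (exact permutation test, two-sided, p = 0.0286, the smallest that 4 against 4 arrays can give). The signal at the 75th percentile was 928 ± 142 on TRKA and 1136 ± 52.5 on CD90 arrays (exact permutation p = 0.0571), and the median signal 31.8 ± 7.34 and 174 ± 8.77 (p = 0.0286). Pearson correlations over all genes tested, with 1 probe per gene, were 0.736 to 0.761 among TRKA arrays, 0.835 to 0.849 among CD90 arrays and 0.572 to 0.647 between the groups. All TRKA arrays were on 1 slide and all CD90 arrays on the other, so slide and cell population cannot be told apart. TRKA shared its slide with the p75 arrays, and CD90 shared its slide with TRKA-TGF.

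Of 20565 genes tested, 6956 (33.8%) were called: 3298 (16%) were higher in TRKA and 3658 (17.8%) were lower. Most genes that fell were below background on at least 1 TRKA array, while the genes that rose were mostly measured in both populations. Of the 3658 lower genes, 1039 were well above background on 0 TRKA arrays and 877 were above it on all 4. Of the 3298 higher genes, 84 were not well above background on any CD90 array and 2877 were above it on all 4. No fewer than 909 genes were well above background on all 4 CD90 arrays and on no TRKA array, against 24 genes in the opposite pattern. In 3259 genes every TRKA array lay above every CD90 array, and in 2761 every TRKA array lay below. In bulk RNA, fewer cells that express a gene and less of its RNA per cell cannot be told apart.

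**Figure D1:**
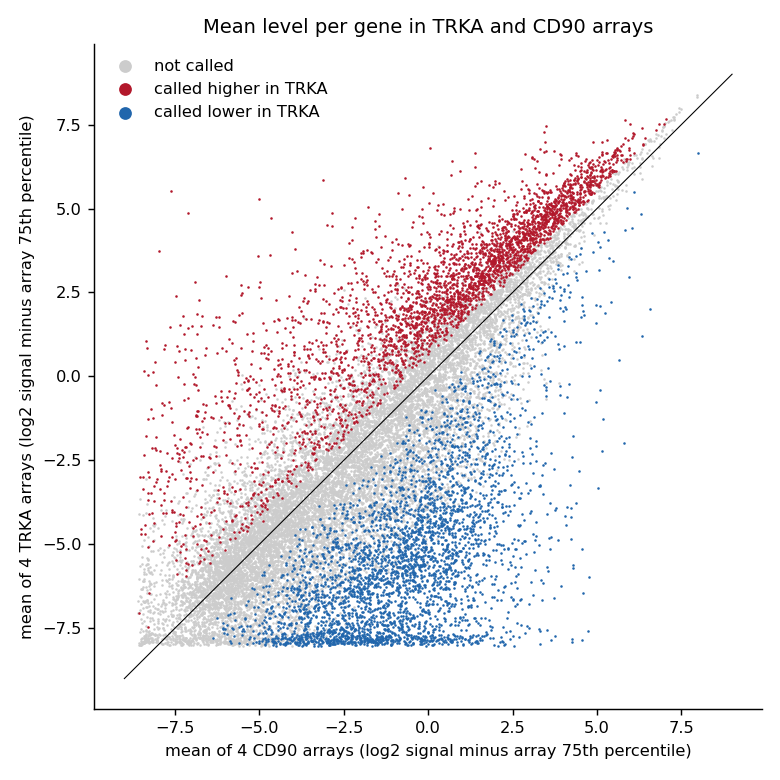
Mean level of each tested gene in the 4 CD90 arrays (horizontal) and the 4 TRKA arrays (vertical), both as log2 signal minus the array's 75th percentile, with genes called higher or lower in TRKA coloured and the line of equality drawn. The called lower genes form a band at the bottom, near background in TRKA, where 1039 of the 3658 had no TRKA array well above background.

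Over all genes, replicates spread more in the TRKA group. The median SD per gene over 4 replicates was 1.08 in TRKA and 0.68 in CD90, and for genes with a mean level from −4 to 0 it was 1.92 and 0.76. The order was the opposite for genes with a mean below −4, with 0.95 in TRKA and 1.15 in CD90. The balance of calls also rested on the scaling of the arrays. The share of called genes that were higher in TRKA was 47.4%, and it was 55.2% after normexp background correction, 61.3% after quantile normalization, 59.9% in the authors' normalized values, 18.8% with the 75th percentile taken over detected probes and 87.0% with each array centred on its median. The median difference over all genes moved with it, from −0.23 to 0.10, 0.29, 0.22, −1.07 and 1.95 in that order. Every difference below is on the first scale. Where only some arrays of a group were well above background, a difference averages measured levels with background ones.

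Thy1, the gene of the CD90 protein by which one population was sorted, was lower in TRKA cells. Its level was −7.38, −7.69, −5.16 and −4.02 in TRKA replicates 1 to 4 and 3.02, 3.17, 3.48 and 3.67 in CD90 replicates 1 to 4 (probe at chr8:47031186-47031646 in rn4). The 4 CD90 arrays lay within a range of 1 unit and above every TRKA array, and 2 of 4 TRKA arrays were well above background. The difference was −9.40 (SE 0.66, adjusted p = 1.92e-07).

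Genes tied to the sorting and induction of the other populations were not called. Ngfr, the gene of p75, was well above background on 0 TRKA arrays and 2 CD90 arrays, against levels of 3.17, 3.18, 3.08 and 2.68 in the p75 cells. Its difference was −2.24 (adjusted p = 0.147), and −3.19 with adjusted p = 0.0386 without CD90 replicate 1. Egfr, the receptor of TGF-alpha, stood at −7.89, −7.70, −7.48 and 1.29 in the TRKA replicates and at 1.09, 0.57, 1.11 and −0.05 in the CD90 replicates. TRKA replicate 4 alone exceeded the CD90 levels, and the other 3 were not well above background (difference −6.13, adjusted p = 0.0519, and −8.37 with adjusted p = 0.00447 without replicate 4). Tgfa, which encodes TGF-alpha, differed by 0.77 (adjusted p = 0.358).

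Markers of macrophages separated the populations. Of 13 measured, 12 were higher in TRKA and 0 lower, with a median difference of 5.06 against −0.23 over all genes, and in all 13 every TRKA array lay above every CD90 array. Of 10 fibroblast markers, 9 were lower in TRKA and 0 higher, with a median difference of −6.51. Over all 20565 genes tested, 16% were higher and 17.8% lower. In 3259 of all genes every TRKA array lay above every CD90 array, and in 2761 below. Fap, a serine protease of activated fibroblasts, was the fibroblast marker not called (−2.83, adjusted p = 0.218), and Adgre1, the adhesion receptor F4/80, the macrophage marker not called (1.54, adjusted p = 0.440). Centring each array on its median called 13 macrophage markers higher and left 7 fibroblast markers lower with 1 higher, Col1a1. The remaining scalings kept 12 and 9.

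Cd53 encodes a tetraspanin of leukocyte membranes. Its level was 1.11, −0.29, 1.11 and 1.38 in TRKA replicates 1 to 4 and −6.33, −8.21, −8.20 and −8.55 in CD90 replicates 1 to 4 (chr2:202186186-202186245 in rn4). All TRKA arrays were well above background and 1 of the CD90 arrays was, replicate 1, which stood nearly 2 units above the other 3. The difference was 8.65 (SE 0.82, adjusted p = 2.82e-06).

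Cd163, the scavenger receptor through which macrophages take up haptoglobin bound to hemoglobin, showed the largest difference among the markers. The TRKA replicates stood at 4.94, 5.14, 4.97 and 4.45 and the CD90 replicates at −8.29, −3.24, −8.37 and −8.57 (chr4:160423704-160423763 in rn4). Only CD90 replicate 2 was well above background in that group, and it still lay more than 7 units below the lowest TRKA array. The difference was 11.99 (SE 1.32, adjusted p = 1.09e-05). In the TRKA-TGF cells Cd163 stood at −7.59, −7.87, −8.01 and −8.28.

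Csf1r, the receptor of the macrophage growth factor CSF1, and Tyrobp, the adaptor DAP12 that carries activating signals of myeloid receptors, were measured in both populations on all arrays. Csf1r stood at 3.57, 4.99, 4.95 and 3.86 in TRKA and 1.34, −0.01, 0.02 and 0.16 in CD90 (difference 3.96, SE 0.68, adjusted p = 4.53e-04). Tyrobp stood at 5.92, 6.24, 6.21 and 6.04 in TRKA and 1.54, 1.06, −0.19 and 1.41 in CD90 (chr1:85369110-85369169 in rn4; 5.15, SE 1.15, adjusted p = 0.00313). In both genes the TRKA arrays lay together well above the CD90 arrays, and neither gene was at background in CD90. A second, dimmer probe of Csf1r gave a smaller difference of 1.25 (adjusted p over all probes = 0.263), and a second probe of Ptprc, the leukocyte phosphatase CD45, gave 1.17 (0.585) where the chosen one gave 5.06 (adjusted p = 0.00171).

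The other macrophage markers kept the same order. The chains of C1q, which opens the classical complement pathway, differed by 6.75 (C1qa), 6.60 (C1qb) and 4.68 (C1qc). Cd68, a lysosomal membrane glycoprotein, stood at 3.88, 4.00, 4.06 and 4.01 in TRKA and −0.85, −0.98, −1.13 and −1.34 in CD90, a difference of 5.06 (adjusted p = 7.08e-07). Both groups were tight for Cd68, each within 1 unit. Cd14, the co-receptor for bacterial lipopolysaccharide, differed by 5.32, Aif1, an actin-bundling protein of macrophages, by 3.77, and Mrc1, the mannose receptor, by 2.71, all called higher.

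**Figure D2:**
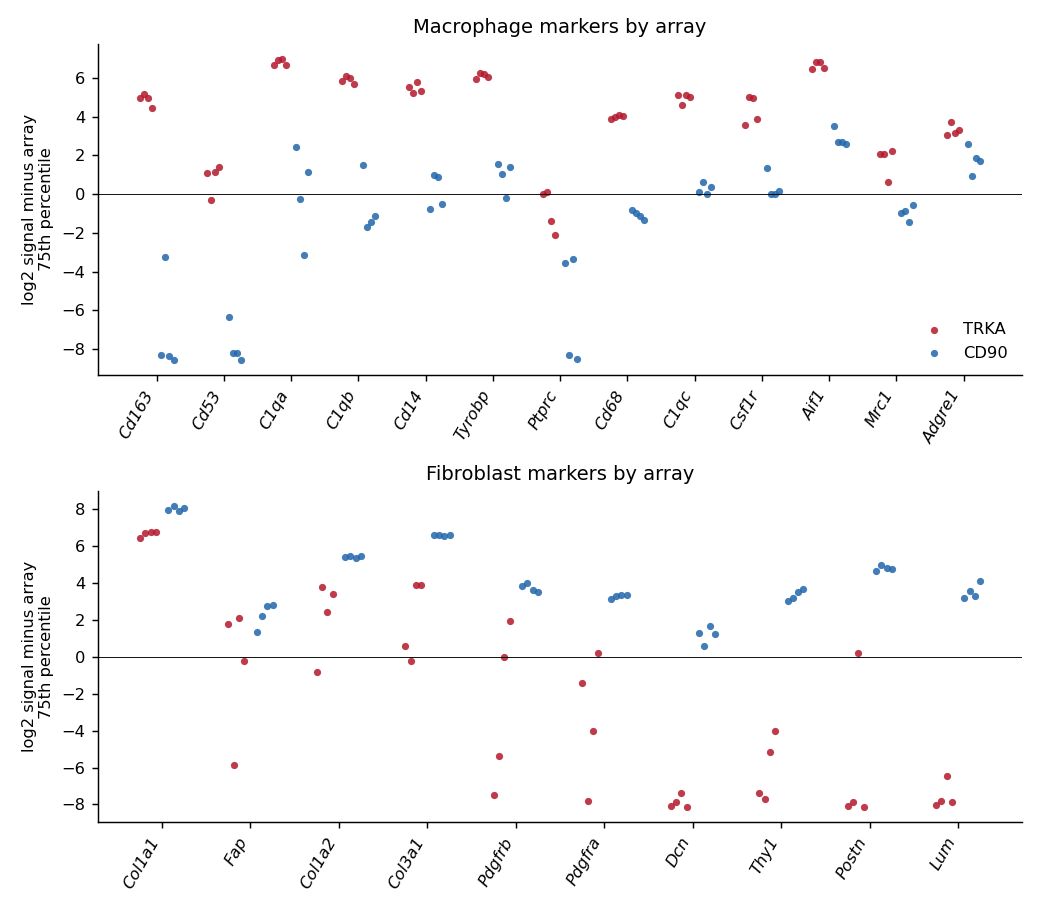
Level of each macrophage marker (top) and fibroblast marker (bottom) on the 4 TRKA and 4 CD90 arrays, 1 point per array in replicate order from left to right, as log2 signal minus the array's 75th percentile. The TRKA points of all 13 macrophage markers lie above the CD90 points, and the TRKA points of Pdgfra, Pdgfrb and Col3a1 scatter widely below CD90 points that lie close together.

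Lum encodes lumican, a keratan sulfate proteoglycan that spaces collagen fibrils. It was not well above background on any TRKA array, with levels of −8.04, −7.82, −6.45 and −7.88, and stood at 3.16, 3.58, 3.28 and 4.08 in the CD90 replicates (chr7:35086409-35086468 in rn4). Where a group had no array well above background, a fold is given only as a lower bound, from the brighter group's mean over the higher of the lowest signal well above background and the dim probe's own signal on each array. Lum was at least 598-fold lower in TRKA (adjusted p = 1.79e-04). Decorin, the related proteoglycan encoded by Dcn, was at least 118-fold lower (adjusted p = 2.81e-04).

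Postn, the gene of the matricellular protein periostin, stood at −8.07, −7.87, 0.18 and −8.15 in TRKA and 4.62, 4.94, 4.78 and 4.76 in CD90. TRKA replicate 3 alone was well above background, about 8 units above the other 3 and still more than 4 below the lowest CD90 array (difference −10.75, SE 1.41, adjusted p = 4.90e-05). The receptors of platelet-derived growth factor that fibroblasts carry were scattered in the TRKA cells. Pdgfra stood at −1.44, −7.81, −4.04 and 0.22 in TRKA and 3.14, 3.28, 3.32 and 3.36 in CD90 (−6.54, adjusted p = 0.00470). Pdgfrb stood at −7.50, −5.38, −0.04 and 1.90 and 3.83, 3.99, 3.59 and 3.50 (−6.48, adjusted p = 0.00435). In Pdgfrb, TRKA replicates 3 and 4 were close to or above 0 and replicates 1 and 2 far below it.

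The genes of the fibril-forming collagens were lower in TRKA cells without being absent. Col1a1 stood at 6.43, 6.69, 6.74 and 6.73 in TRKA and 7.94, 8.14, 7.86 and 8.07 in CD90, a difference of −1.36 (SE 0.29, adjusted p = 0.00238) that became 0.82 higher with each array centred on its median. Col1a2 stood at −0.84, 3.79, 2.44 and 3.42 and 5.38, 5.45, 5.33 and 5.46 (−3.20, adjusted p = 0.0248), and the call was lost without TRKA replicate 1 (−2.19, adjusted p = 0.0606) or CD90 replicate 4 (−3.19, 0.0506). Col3a1 stood at 0.57, −0.26, 3.90 and 3.86 and 6.59, 6.61, 6.51 and 6.57 (−4.55, adjusted p = 0.00166). All 3 were well above background on all 8 arrays, and in none did the groups overlap. TRKA replicate 1 was the lowest of its group for Col1a1 and Col1a2, and replicate 2 for Col3a1.

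Each population also held transcripts of the other's markers. Of the 13 macrophage markers, 10 to 12 were well above background on the CD90 arrays, and of the 10 fibroblast markers 5 to 8 were on the TRKA arrays. The log2 of the summed macrophage marker signals ran from 8.82 to 9.12 in TRKA, 4.02 to 5.07 in CD90, 2.31 to 3.42 in p75 and 7.55 to 7.62 in TRKA-TGF. That of the fibroblast markers ran from 6.52 to 7.10 in TRKA, 8.79 to 8.99 in CD90, 7.49 to 7.59 in p75 and 2.08 to 3.81 in TRKA-TGF. The TRKA and TRKA-TGF arrays lay on different slides. Both held high macrophage sums, but their fibroblast sums were far apart, 6.52 to 7.10 in TRKA and 2.08 to 3.81 in TRKA-TGF. The p75 arrays, on the TRKA slide, held the lowest macrophage sums. An effect of slide on these sums was not tested. The part of such other cells in any single difference was not tested.

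**Figure D3:**
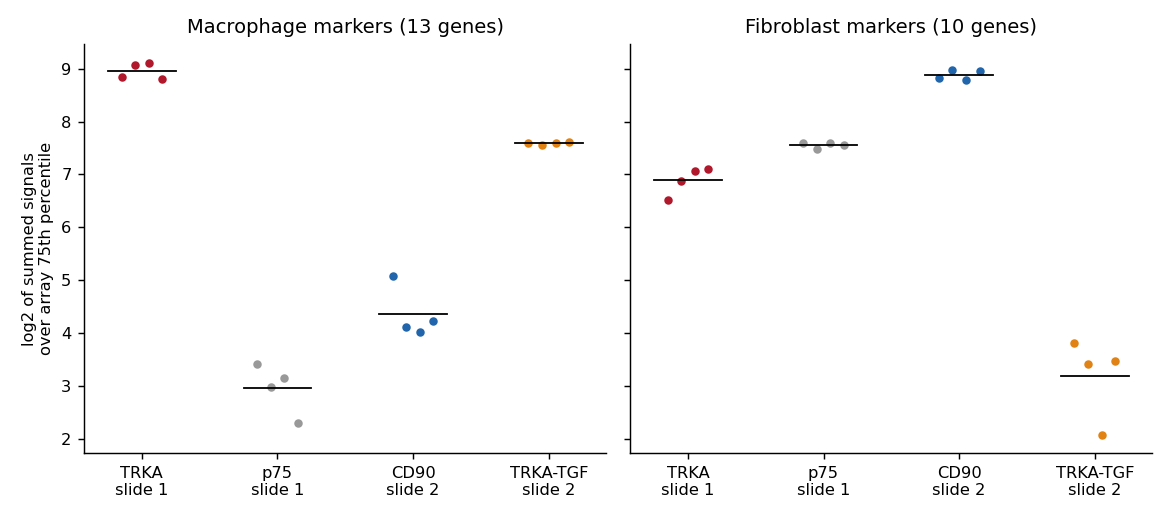
Log2 of the summed signals of 13 macrophage markers and of 10 fibroblast markers, relative to the array's 75th percentile, for each of the 4 arrays of the TRKA, p75, CD90 and TRKA-TGF groups, with the slide under each group. TRKA reaches 8.82 to 9.12 for macrophage markers against 4.02 to 5.07 in CD90, and fibroblast markers fall from 8.79 to 8.99 in CD90 to 6.52 to 7.10 in TRKA.

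Promoters of 6 genes that differed widely are shown, Cd53 and Cd68 from the macrophage markers, the lysosomal gene Ctss, and Lum, Postn and Col1a2 from the fibroblast markers. They were chosen with their values known. Each is the 250 bases before the annotated start of the gene in RefSeq's GRCr8 assembly, written 5′ to 3′ on the gene's strand, and capitals mark matches to the motifs searched on both strands: GAGGAAGT for PU.1, the master factor of myeloid cells, TGACTCA for AP-1, GGAATG for TEAD, TATAAA for the TATA box, and the CArG box of serum response factor.
Cd53 (chr2:197087897-197088146, minus strand): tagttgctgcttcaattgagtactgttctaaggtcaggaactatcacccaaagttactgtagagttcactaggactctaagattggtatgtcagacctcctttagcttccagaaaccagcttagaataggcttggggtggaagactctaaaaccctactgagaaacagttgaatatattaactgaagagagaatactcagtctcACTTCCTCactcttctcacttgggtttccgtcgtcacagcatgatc
Ctss (chr2:185775146-185775395, plus strand): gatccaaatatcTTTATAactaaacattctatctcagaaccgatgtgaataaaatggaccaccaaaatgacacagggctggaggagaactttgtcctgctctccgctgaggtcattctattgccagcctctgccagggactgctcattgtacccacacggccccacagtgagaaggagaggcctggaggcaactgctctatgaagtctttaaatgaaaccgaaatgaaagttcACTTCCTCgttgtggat
Cd68 (chr10:54882442-54882691, minus strand): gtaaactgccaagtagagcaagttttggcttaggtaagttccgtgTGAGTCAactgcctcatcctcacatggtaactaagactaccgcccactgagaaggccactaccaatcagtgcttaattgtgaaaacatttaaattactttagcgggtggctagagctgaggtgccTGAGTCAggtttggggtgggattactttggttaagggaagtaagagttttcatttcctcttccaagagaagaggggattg
Lum (chr7:34245456-34245705, plus strand): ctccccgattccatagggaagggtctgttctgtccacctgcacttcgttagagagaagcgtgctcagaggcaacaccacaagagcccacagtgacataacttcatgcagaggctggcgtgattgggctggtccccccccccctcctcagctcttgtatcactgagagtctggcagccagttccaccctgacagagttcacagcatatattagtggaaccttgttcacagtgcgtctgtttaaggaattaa
Postn (chr2:140677811-140678060, plus strand): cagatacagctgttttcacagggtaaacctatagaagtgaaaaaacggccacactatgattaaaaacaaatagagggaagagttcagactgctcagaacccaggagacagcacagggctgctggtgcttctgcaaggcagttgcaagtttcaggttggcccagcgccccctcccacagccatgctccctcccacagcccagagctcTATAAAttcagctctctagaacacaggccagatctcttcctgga
Col1a2 (chr4:33518307-33518556, plus strand): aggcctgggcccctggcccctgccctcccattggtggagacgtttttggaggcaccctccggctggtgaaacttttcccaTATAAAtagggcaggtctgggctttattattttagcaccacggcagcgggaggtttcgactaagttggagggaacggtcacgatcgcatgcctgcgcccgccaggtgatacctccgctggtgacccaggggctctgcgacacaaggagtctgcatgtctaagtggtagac
The PU.1 motif lay on the opposite strand from base 46 to 39 before the start of Cd53 and from base 17 to 10 before the start of Ctss, the gene of the lysosomal protease cathepsin S. Cd68 held AP-1 motifs on the opposite strand from base 205 to 199 and from base 80 to 74, and Postn and Col1a2 a TATA motif on the gene's strand from base 44 to 39 and from base 170 to 165. Ctss held a TATA motif on the opposite strand from base 238 to 233. These letters were not found in the Lum window.

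Over all promoters, the PU.1 motif was present in 3.34% of 1496 promoters of genes higher in TRKA, 1.91% of 2360 promoters of genes lower in TRKA and 2.26% of 11612 promoters of all tested genes with a symbol. The AP-1 motif was present in 3.54%, 3.64% and 3.19% in that order, the TEAD motif in 9.76%, 10.6% and 10.3%, the TATA motif in 8.42%, 6.69% and 8.22%, and the CArG box in 1.47%, 1.06% and 1.23%. A match is a description of the letters in the window, and these shares were not tested.

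Transcription factors of the myeloid lineage were mostly higher in TRKA cells: 12 of 21 rose and 3 fell, the latter near the 17.8% over all genes. The median difference was 2.56, and 1 fell with each array centred on its median. Spi1, which encodes PU.1 and is given for that role with its values known, stood at −1.83, −2.49, 3.04 and 1.02 in TRKA and −5.36, −2.76, −5.12 and −5.22 in CD90 (4.55, SE 1.04, adjusted p = 0.00384). The lowest TRKA array, replicate 2, lay just above the highest CD90 array, and replicate 3 more than 5 units above it. Hhex, a homeobox repressor of blood progenitors, differed by 7.39 (2 of 4 CD90 arrays above background), Lyl1, a basic helix-loop-helix factor, by 6.50, and Tfec, a relative of MITF found in macrophages, by 5.87. Nr1h3, the liver X receptor that senses oxysterols, was at least 32.7-fold higher (adjusted p = 0.0131), with TRKA replicate 3 at background. The 3 that fell were Klf4 (−5.86) and Klf2 (−4.07), zinc finger factors shared with endothelium and epithelium, and Stat6 (−3.29, adjusted p = 0.0400), the transducer of interleukin 4 signals. Leaving out any of 6 arrays, TRKA replicates 3 and 4 and each CD90 replicate, lost the Stat6 call (adjusted p = 0.071 to 0.111).

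Of the receptors of the colony stimulating factors Csf1r, Csf2ra and Csf2rb rose, and the macrophage growth factor itself fell. Besides Csf1r, Csf2ra differed by 4.94 and Csf2rb, the common beta chain that signals for GM-CSF and interleukin 3, by 8.50 (adjusted p = 4.16e-05 and 7.08e-04). Csf1, the main ligand of Csf1r, stood at −6.84, −5.63, −6.73 and −1.71 in TRKA and 0.95, 0.41, 0.23 and 0.74 in CD90 (−5.81, SE 0.91, adjusted p = 2.20e-04). All CD90 arrays were above 0 and 2 of 4 TRKA arrays were at background. Il34, the other ligand of Csf1r, spread over the same range in both (0.00, SE 1.31), and the neutrophil receptor Csf3r was not called (−1.98, adjusted p = 0.0658, and −2.68 with 0.0118 without CD90 replicate 3). In all, 3 of 7 members were higher and 1 lower, and 3 were lower with the 75th percentile over detected probes.

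Of receptors that signal through ITAM adaptors and the inhibitory receptors that oppose them, 20 of 26 were higher and 0 lower. Over all genes 16% were higher and 17.8% lower. The median difference of the 26 was 3.99. Trem1, which amplifies inflammatory signals through DAP12, stood at 2.19, 1.76, 3.18 and 2.47 in TRKA and −6.00, −8.03, −8.43 and −7.37 in CD90 (9.85, SE 1.25, adjusted p = 3.75e-05). CD90 replicate 1 was the only array of its group above background. The C-type lectin receptors Clec10a (8.96) and Clec4d (7.40) and the sialic acid receptor Cd33 (6.22) followed. Trem2, the lipid receptor of microglia and tissue macrophages, was taken up after its values were seen: it stood at 2.95, 3.43, 4.14 and 4.52 in TRKA and 1.60, −4.13, −1.10 and −3.62 in CD90 (5.57, adjusted p = 4.72e-04). Members not called were Clec4e (0.24, not above background on any of the 8 arrays), Clec7a (0.38), Siglec5 (−1.22), Trem3 (1.64), Clec5a (2.05) and Fcgr3a (4.51, adjusted p = 0.0638).

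Kinases, adaptors and cytoskeletal proteins of leukocytes gave 28 of 34 higher and 0 lower (median 4.94). Rac2, the GTPase of blood cells that drives the oxidase and actin, stood at −0.08, 1.73, 2.65 and 1.57 in TRKA and −3.80, −8.47, −8.38 and −4.15 in CD90 (7.67, adjusted p = 3.51e-04). In CD90, 2 of the 4 arrays were well above background for Rac2, and all lay below the TRKA arrays. Plcg2, the phospholipase downstream of Syk, differed by 7.24, Arhgdib, an inhibitor of GTPase cycling, by 7.11, and Lcp1, an actin bundler, by 6.66 (adjusted p = 8.44e-04, 8.31e-04 and 1.67e-05). Pik3r5 (0.12), Vav3 (0.45), Nckap1l (1.26), Blnk (2.21), Lyn (2.48) and Dok3 (3.20) were not called. For 4 of them 1 TRKA array decided this: Nckap1l was called at 3.32 without replicate 3 (adjusted p = 0.00173), Dok3 at 4.93 without replicate 1 (6.73e-06), Blnk at 3.16 without replicate 2 (0.0224) and Lyn at 3.99 without replicate 4 (0.0367).

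The phagocyte oxidase makes superoxide at the phagosome membrane. Its membrane core Cybb stood at 4.79, 4.80, 5.10 and 4.51 in TRKA and −0.10, 0.91, 0.29 and 0.76 in CD90 (4.34, SE 0.69, adjusted p = 2.47e-04), with the CD90 arrays about 4 units lower and none at background. The cytosolic subunit Ncf4 also rose (6.88). In all 6 of 7 members were higher, and the proton channel gene Hvcn1 was not called (−0.06, adjusted p = 0.922, and 2.12 higher with each array centred on its median).

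Of 15 receptors and bridging ligands for scavenging and for dead cells, 8 were higher and 3 lower, the latter near the 17.8% over all genes. The median was 0.67, which was −0.17 with the 75th percentile over detected probes, where 5 were lower. Beyond Cd163 and Cd68, Olr1, a receptor of oxidised lipoprotein, was at least 5.80-fold higher (adjusted p = 0.00668) and Msr1, the class A scavenger receptor, differed by 3.72 (adjusted p = 5.76e-04). The members that fell were Mrc2, the collagen receptor of fibroblasts, at least 182-fold lower (adjusted p = 5.22e-05), Pros1, a bridging ligand of the TAM receptors (−6.75), and Scarb1, the receptor of high-density lipoprotein (−4.87). A second probe of Scarb1, measured on all 8 arrays, gave 0.67 and was not called. Of the TAM receptors, Mertk was called higher (3.37, adjusted p = 0.0476, lost without any of 4 arrays, with 1.95 and adjusted p = 0.113 without CD90 replicate 2) and Axl was not called (−0.85, adjusted p = 0.358).

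Lysosomal genes rose by smaller steps from levels already high in CD90 cells: 20 of 23 were higher and 1 lower, with a median difference of 1.97. Ctss stood at 5.69, 5.90, 5.89 and 5.81 in TRKA and 2.77, 2.49, 2.99 and 2.83 in CD90, each group within 1 unit (3.05, adjusted p = 7.10e-06). The steepest were Atp6v0d2, a subunit of the proton pump (5.29), Acp5, the tartrate-resistant phosphatase (4.48), Ctsc, the dipeptidyl peptidase that activates granule proteases (4.45), and Lyz2, lysozyme (4.10). The gene that fell was Ctsk, the collagen-digesting cathepsin K, at least 8.10-fold lower and on no TRKA array above background (adjusted p = 0.00107). Asah1 and Slc11a1 were not called (0.67 and 1.22), and without TRKA replicate 1 Asah1 was (1.03, adjusted p = 0.0495).

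Of 18 complement genes, 10 rose, C1q chains, properdin and anaphylatoxin receptors among them, and 3 fell, C1s, C3 and the C1 inhibitor (median 1.79). Over all genes 16% rose and 17.8% fell, so the share that fell here was near that of all genes. With the 75th percentile over detected probes 5 fell. Cfd, which encodes the protease that starts the alternative pathway, stood at 4.97, 5.40, 5.30 and 5.45 in TRKA and −4.05, −4.09, −6.26 and −5.65 in CD90 (10.30, SE 0.79, adjusted p = 4.10e-07). It was well above background on all 8 arrays, and the groups were about 9 units apart at their nearest. The anaphylatoxin receptor C5ar1 differed by 5.93, C1qa by 6.75 and C1qb by 6.60. C1s was at least 393-fold lower, C3 at least 134-fold and Serping1 at least 8.65-fold (adjusted p = 5.98e-10, 0.00159 and 0.00473). C1r, the partner protease of C1s, was not called (−1.39, adjusted p = 0.125), and the regulator Cd55 was not called on its chosen probe (−2.16) and was lower on a second one (−5.52, adjusted p over all probes = 0.00233). TRKA replicate 2 stood alone at 0.16 on the chosen probe, and without it Cd55 was called lower (−3.86, adjusted p = 0.00989).

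Genes of MHC class II presentation rose in 7 of 9 cases and fell in 0 (median 5.16). Cd74, the invariant chain, stood at 6.25, 6.53, 6.12 and 6.08 in TRKA and 2.41, 0.04, 1.42 and 1.66 in CD90 (4.86, SE 0.42, adjusted p = 1.12e-06). The highest CD90 array lay more than 3 units below the lowest TRKA array. Ciita, the class II transactivator, stood at −0.71, 2.80, 0.57 and −0.43 in TRKA and −2.99, −7.70, −3.53 and −8.54 in CD90 (6.25, adjusted p = 0.00306), at background on 2 CD90 arrays. RT1-DMa (6.37) and RT1-DMb (5.49), the chains of the peptide exchanger, and RT1-Db1 (5.71) rose, while RT1-Ba (−0.99) and RT1-DOb (−0.19) were not called. Quantile normalization and median centring called both of the latter higher (RT1-Ba at 0.95 and 1.19, RT1-DOb at 1.86 and 1.99, and at 1.62 in the authors' values), and RT1-Ba was lower without CD90 replicate 4 (−1.20, adjusted p = 0.0407). These genes belong to a polymorphic multigene family, and cross-hybridisation between members was not tested.

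Chemokines and their receptors were higher in 10 of 24 cases and lower in 3, the latter not above the 17.8% over all genes (median 1.95). With each array centred on its median 18 were higher, and after quantile normalization and in the authors' values 14. Ccl6, a rodent CC chemokine of macrophages, stood at 5.35, 5.59, 5.72 and 5.47 in TRKA and −7.80, −6.19, −8.01 and −8.51 in CD90 (13.16, SE 0.52, adjusted p = 6.53e-10). Ccl12 stood at 4.56, 4.89, 4.82 and 4.55 and −4.06, −3.80, −3.41 and −7.32 (9.35, adjusted p = 1.70e-06), with CD90 replicate 4 more than 3 units under the rest of its group. Ccl9 (8.09) and the neutrophil attractant Cxcl2 (8.01) were also higher. Cxcl12, the stromal chemokine that retains leukocyte progenitors, stood at 0.09, −7.05, −7.64 and −8.06 in TRKA and 2.54, 2.23, 3.15 and 2.40 in CD90 (−8.25, adjusted p = 0.00531): TRKA replicate 1 alone was above background. Ccl20 (−5.84) fell, and Ackr3, the scavenging receptor of Cxcl12, was at least 4.26-fold lower (adjusted p = 8.79e-06). The monocyte receptors Ccr2 (0.27) and Cx3cr1 (0.49) were not called, and without TRKA replicate 1 Cx3cr1 was (0.60, adjusted p = 0.0444).

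Among cytokines and their receptors 11 of 25 were higher and 6 lower (median 0.90). Over all genes 16% were higher and 17.8% lower, so the share that fell here was not far from that of all genes. Only 3 were lower after normexp background correction, with median centring, with array weights or in a fit of the TRKA and CD90 arrays alone. Il1b, the inflammasome-processed cytokine, was chosen after its values were seen: it stood at −0.45, 1.99, 0.35 and 0.92 in TRKA and −4.60, −4.42, −5.24 and −5.54 in CD90 (5.65, SE 0.44, adjusted p = 4.26e-07). Il1a was at least 142-fold and Il2rg, the common gamma chain, at least 84.0-fold higher (adjusted p = 5.76e-06 and 8.59e-05). Il4r (7.04) and the interleukin 1 antagonist Il1rn (5.70) followed. Among those lower, Il6st, the shared signal transducer gp130, fell by 8.46 and Osmr, the oncostatin M receptor, by 6.32 on the log2 scale (adjusted p = 4.70e-06 and 0.00111). Il33, an alarmin of stromal cells, fell by 6.03, and Il6 was at least 4.00-fold lower with CD90 replicate 1 also at background (adjusted p = 9.67e-04 and 0.0101).

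Genes of eicosanoid synthesis were higher in 6 of 13 cases and lower in 2, the latter near the 17.8% over all genes (median 1.39). Tbxas1, thromboxane synthase, differed by 9.07, Alox5ap, which presents arachidonate to 5-lipoxygenase, by 6.80, and Ptgs1, the constitutive cyclooxygenase, by 5.50 (adjusted p = 6.59e-05, 0.00428 and 0.00120). A second probe of Ptgs1 was not called (−2.22, adjusted p over all probes = 0.374). Hpgds, the hematopoietic prostaglandin D synthase, was at least 29.6-fold higher (adjusted p = 0.00391). Ptgs2, the inducible cyclooxygenase, was at least 10.2-fold lower and Ptges, prostaglandin E synthase, differed by −2.89 (adjusted p = 3.56e-04 and 0.0299). The Ptges call was lost without any of 6 arrays (adjusted p = 0.0529 to 0.0876). Alox5 itself was above background on 1 array of each group (1.23, not called).

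Lipid handling gave 8 of 18 higher and 3 lower, the latter near the 17.8% over all genes. The median was 0.61, and −0.24 with 6 lower with the 75th percentile over detected probes. Cholesterol export and fatty acid carrier genes were among those higher and desaturases among those lower. Abcg1 (6.34), a cholesterol exporter, Fabp5 (6.09), a fatty acid carrier, and Ch25h (5.13), cholesterol 25-hydroxylase, rose beside Nr1h3. The desaturase genes Fads2 and Fads1 fell by 6.22 and 6.12 on the log2 scale (adjusted p = 0.00139 and 0.00252), each with 1 of 4 TRKA arrays above background.

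Genes of iron and heme handling rose in 6 of 8 cases (median 3.28, 0 lower). Hmox1, the heme oxygenase, stood at 7.15, 7.36, 7.43 and 7.18 in TRKA and 3.41, 3.41, 3.43 and 3.43 in CD90 (3.86, SE 0.20, adjusted p = 8.21e-09). The 4 CD90 arrays nearly coincided and lay more than 3 units below the lowest TRKA array. Blvrb, biliverdin reductase B (4.15), Ftl1, ferritin light chain (3.76), and Slc40a1, the iron exporter ferroportin (3.52), followed. A second probe of Slc40a1 gave 1.63 and was not called (adjusted p over all probes = 0.117). Ceruloplasmin (Cp) was called higher on its chosen probe (1.74) and lower on another (−2.91, adjusted p over all probes = 0.00416), and the third was not called, so the gene has no single direction here. Of the leukocyte integrins, Itgb2 (5.17) and Itgam (3.21), the chains of complement receptor 3, were higher, and the other 4 of 6 were not called, while 4 in all were higher with each array centred on its median.

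**Figure D4:**
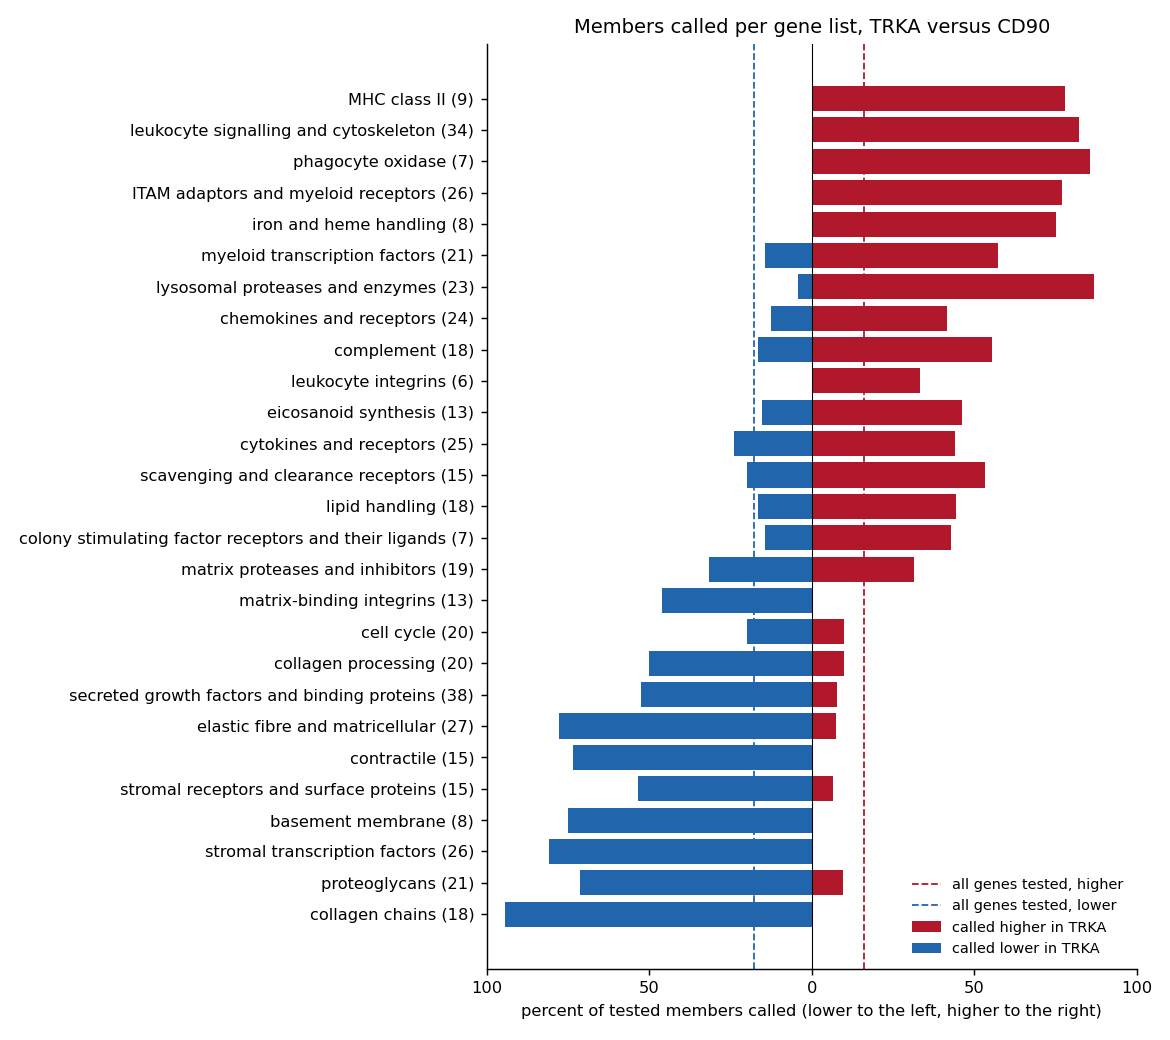
Percent of each list's tested members (number in parentheses) called higher in TRKA to the right and lower to the left, with dashed lines at the share over all genes tested, 16% higher and 17.8% lower. Lists of macrophage functions reach up to 20 of 23 members higher (lysosomal genes), and collagen chains 17 of 18 lower.

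Connective tissue genes showed the opposite pattern, and many of them were at background in TRKA cells. Of 26 transcription factors of mesenchyme, 21 were lower and 0 higher (median −5.71), and 19 and 2 with each array centred on its median. Zeb1, a repressor of epithelial genes, stood at −7.74, −6.92, −7.24 and −4.49 in TRKA and 3.76, 3.85, 3.47 and 3.76 in CD90 (−10.31, SE 0.73, adjusted p = 2.00e-07). Every CD90 array was more than 7 units above every TRKA array. Tead1, a DNA-binding partner of YAP, was at least 168-fold lower and Snai2 (Slug) at least 140-fold lower (adjusted p = 4.28e-10 and 6.27e-07). Prrx1, a homeobox gene of facial and limb mesenchyme, stood at −8.16, −5.21, 2.16 and −8.22 in TRKA and 3.86, 3.81, 3.63 and 4.03 in CD90 (−8.69, adjusted p = 0.00348), with TRKA replicate 3 apart from the rest of its group, less than 2 units below the lowest CD90 array. Msx2, Meox2, Gli1, Tead3 and Meox1 were not called, although Msx2 was lower without TRKA replicate 2 (−3.18, adjusted p = 0.0391) and Gli1 and Tead3 were higher with each array centred on its median (1.72 and 1.78).

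Collagen chain genes were lower in 17 of 18 cases (median −7.55, 0 higher), and Col15a1 was not called (0.82, adjusted p = 0.387, and 1.57 higher with adjusted p = 0.0344 without TRKA replicate 1). With each array centred on its median 13 were lower and 2 higher. All 18 were well above background on every CD90 array, and 8, 10, 10 and 13 on TRKA replicates 1 to 4. Col6a1 and Col6a2, chains of the microfibrillar collagen around cells, were at least 521-fold and 111-fold lower (adjusted p = 1.12e-04 and 1.26e-05). Col8a1 fell by 8.93 and Col12a1 fell by 8.51 (adjusted p = 1.04e-05 and 1.87e-07). Col4a2, a chain of basement membranes, stood at −4.11, −5.11, −4.47 and −3.08 in TRKA and 4.10, 4.27, 4.17 and 4.40 in CD90 (−8.42, adjusted p = 9.40e-07). All 8 arrays were well above background for Col4a2, and the nearest arrays of the groups were more than 7 units apart.

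Of 20 genes that process collagen, 10 were lower and 2 higher (median −3.31). With the 75th percentile over detected probes 15 were lower and 0 higher, and with each array centred on its median 8 and 8. Among those lower were oxidases that cross-link fibrils, and several enzymes that hydroxylate chains in the endoplasmic reticulum were not called. Lox stood at −2.21, −7.92, −7.52 and −8.19 in TRKA and 4.31, 4.58, 4.62 and 4.78 in CD90 (−11.03, SE 1.19, adjusted p = 9.35e-06). TRKA replicate 1 was the only one of its group above background. Loxl1 was at least 409-fold lower, P4ha3, a prolyl hydroxylase subunit, fell by 10.18 and Loxl2 fell by 9.21 (adjusted p = 3.72e-09, 9.95e-06 and 8.15e-04). The oxidase gene Loxl4 was not called on its chosen probe (−1.49, adjusted p = 0.152) and was lower on a second one (−5.94, adjusted p over all probes = 0.0011). P4ha1 (−1.05), P4ha2 (0.20), Plod2 (−0.89), Plod3 (−0.11) and P3h1 (−0.22) were not called. Without TRKA replicate 2, P4ha1 and Plod2 were lower (−1.59 and −1.16, adjusted p = 0.0034 and 0.0191), and P4ha2 was lower after quantile normalization (−0.74), in the authors' values (−0.72) and with the 75th percentile over detected probes (−0.64). With each array centred on its median P3h1, Plod2 and Plod3 were higher (1.96, 1.29 and 2.07). The 2 that rose were Plod1 (1.04) and the cyclophilin Ppib (1.12), which were not higher after quantile normalization, in the authors' values or with the 75th percentile over detected probes, where 0 members were.

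Proteoglycan genes were lower in 15 of 21 cases and higher in 2 (median −5.81), and higher in 4 with each array centred on its median. Besides Lum and Dcn, Acan, aggrecan, was at least 138-fold lower and Omd, osteomodulin, at least 110-fold lower (adjusted p = 1.27e-07 and 7.72e-12). The 2 that rose were Vcan and Sdc3. Vcan, the large hyaluronan-binding proteoglycan versican, stood at 5.07, 5.24, 5.52 and 5.23 in TRKA and 2.05, 2.39, 2.38 and 2.23 in CD90 (3.00, SE 0.27, adjusted p = 1.60e-06), with no overlap and each group within 1 unit. Sdc3, syndecan 3, differed by 4.85 (adjusted p = 0.00343). Fmod, Prelp, Sdc1 and Sdc4 were not called, and Fmod was lower without TRKA replicate 1 (−1.34, adjusted p = 0.0463) and Sdc4 higher with each array centred on its median (1.70).

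Of 27 elastic fibre and matricellular genes, 21 were lower and 2 higher (median −4.11), and 13 were lower with each array centred on its median. Fbn1, fibrillin 1, was at least 250-fold lower, and Ccn4, a secreted target of WNT signalling, at least 150-fold lower (adjusted p = 6.50e-07 and 1.70e-07). Tnc, tenascin C, fell by 8.38 (adjusted p = 0.00313). Fibronectin (Fn1) fell by 1.83 on its chosen probe (adjusted p = 0.0207) and not on a second one (−0.15, adjusted p over all probes = 0.744). Its call was lost without TRKA replicate 2 or 4 (adjusted p = 0.0557 and 0.056), and the difference was 0.35 and not called with each array centred on its median. Spp1, osteopontin, stood at 5.32, 5.70, 5.75 and 5.54 in TRKA and 3.13, 2.87, 3.02 and 2.80 in CD90 (2.62, SE 0.26, adjusted p = 3.78e-06). Every TRKA array exceeded every CD90 array for Spp1 by more than 2 units, and Ccn3 also rose (3.55, adjusted p = 0.00195).

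Basement membrane genes were lower in 6 of 8 cases and higher in 0 (median −5.21). Nid1, nidogen 1, which links laminin to collagen IV, was at least 988-fold lower and Lama2 at least 26.5-fold lower (adjusted p = 2.82e-06 and 0.00120). The laminin chains Lamb1 and Lamc1 fell by 9.33 and 8.29 (adjusted p = 6.60e-05 and 7.90e-05). Nid2 was not called on its chosen probe (−1.53) and was lower on another (−8.19, adjusted p over all probes = 0.000167).

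Contractile genes were lower in 11 of 15 cases and higher in 0 (median −4.39), and 7 were lower and 1 higher with each array centred on its median. Cald1, caldesmon, fell by 10.002, Mylk, myosin light chain kinase, fell by 9.17 and Myl9, a regulatory light chain, by 6.66 (adjusted p = 5.94e-05, 1.56e-06 and 0.00129). Lmod1, an actin nucleator of smooth muscle, was at least 29.6-fold lower (adjusted p = 1.14e-05). Acta2, the smooth muscle actin that marks myofibroblasts, was not called. It stood at −1.28, −5.47, −5.18 and −3.95 in TRKA and −2.30, −1.73, −2.20 and −2.46 in CD90 (−1.80, adjusted p = 0.0862), and TRKA replicate 1 lay above all CD90 arrays while the other 3 lay below them. Without that replicate Acta2 was called lower (−2.69, adjusted p = 0.00161).

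Surface proteins of stromal cells were lower in 8 of 15 cases and higher in 1 (median −4.44). Ddr2, a collagen-sensing kinase, fell by 6.89 (adjusted p = 7.49e-06) beside Thy1 and both platelet-derived growth factor receptors. Tgfbr2, the signalling receptor of TGF-beta, rose on its chosen probe (1.88, adjusted p = 0.00551) and differed by −0.12 on a second one (adjusted p over all probes = 0.912). Of 13 integrins that bind matrix, 6 were lower and 0 higher (median −1.72): Itga11, a collagen receptor, fell by 10.02, Itga8 by 7.54 and Itga1 by 2.48, and Itgb8 was at least 12.7-fold lower (adjusted p = 9.14e-05, 8.24e-04, 0.00166 and 8.12e-05). With each array centred on its median that list gave 3 lower and 3 higher.

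**Figure D5:**
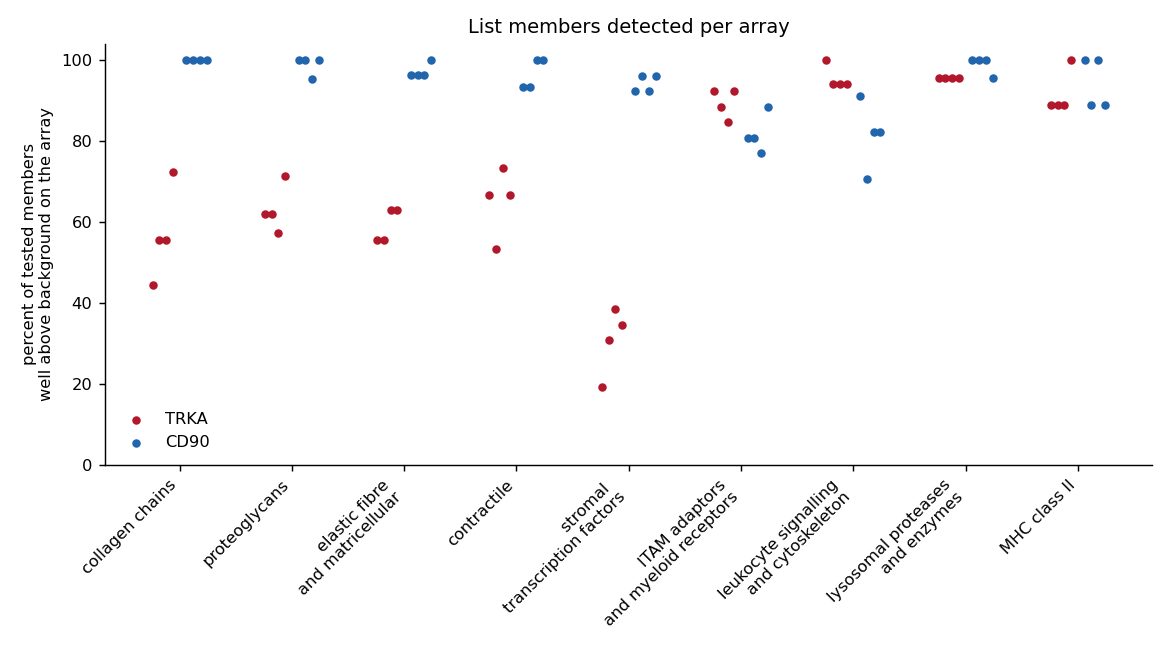
Percent of the tested members of each list that were well above background on each TRKA and each CD90 array, 1 point per array. In CD90 nearly every stromal gene was detected, all 18 collagen chains on each array, whereas TRKA arrays detected 8 to 13 of them and 5 to 10 of 26 stromal transcription factors.

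Secreted growth factors and their binding proteins were lower in 20 of 38 cases and higher in 3 (median −3.41), and higher in 7 with each array centred on its median. Fgf7, keratinocyte growth factor, which mesenchyme makes for neighbouring epithelium, stood at 4.60, 4.95, 4.70 and 4.70 in CD90 and at background on every TRKA array, with levels of −7.38, −7.47, −7.51 and −8.00 (chr3:113516353-113517401 in rn4). It was at least 1386-fold lower (adjusted p = 1.61e-06). Tgfb3 was at least 305-fold and Bmp5 at least 156-fold lower, and Bmp4 fell by 9.39 (adjusted p = 2.99e-12, 1.07e-04 and 3.05e-05). Tgfb1 in contrast rose: it stood at 2.05, 1.16, 1.93 and 1.82 in TRKA and −0.99, 0.40, −0.12 and −2.06 in CD90 (2.43, adjusted p = 0.00138).

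Igf1, insulin-like growth factor 1, was the growth factor gene with the largest rise. It stood at 6.87, 7.07, 7.21 and 6.75 in TRKA and 3.32, 2.42, 3.83 and 4.22 in CD90 (3.53, SE 0.87, adjusted p = 0.00605). The TRKA arrays lay within 0.5 units of each other and the CD90 arrays spread over nearly 2. Igfbp3, a carrier of IGF, was called higher by 0.76 (adjusted p = 0.0189) and was −0.03 after quantile normalization and −0.08 with the 75th percentile over detected probes, and its call was lost without CD90 replicate 3 (0.65, adjusted p = 0.0617). Vegfa, Pdgfa, Pdgfb and Tgfb2 were among the members not called (−0.63, −1.98, −0.82 and −0.26), and Pdgfa was lower without TRKA replicate 4 (−2.97, adjusted p = 0.0141). With each array centred on its median Vegfa and Tgfb2 were higher (1.55 and 1.92). Another probe of Vegfa was called higher (1.94, adjusted p over all probes = 0.0240). Another probe of Tgfb2 was called lower (−4.28, adjusted p over all probes = 0.0218). The remaining probes of both genes were not called.

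Proteases that remodel matrix came from both sides, 6 of 19 higher and 6 lower (median −1.24). With the 75th percentile over detected probes 3 were higher and 10 lower, and with each array centred on its median 8 and 4. Adam8 (4.53), a leukocyte sheddase, Mmp12 (4.17), macrophage elastase, and the urokinase Plau (2.24) with its receptor Plaur (2.26) were higher. Plat, tissue plasminogen activator, was at least 198-fold lower, Adamts1 and Adamts5, which cut aggrecan-type proteoglycans, at least 84.0-fold and 111-fold lower, and Mmp2, gelatinase A, fell by 7.39 (adjusted p = 8.19e-12, 6.42e-08, 2.36e-05 and 1.16e-05). The inhibitors Timp1 (−0.53, and 1.66 higher with each array centred on its median) and Timp3 (−1.47) were not called, and Timp2 was higher (1.30, adjusted p = 0.00222). The Timp2 call was lost after quantile normalization, in the authors' values and with the 75th percentile over detected probes.

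Of 30 ligand and receptor pairs listed, 28 had both partners tested. In 2 pairs the ligand was lower and the receptor higher in TRKA, Csf1 with Csf1r (−5.81 and 3.96) and C3 with C3ar1, whose ligand was at least 134-fold lower and whose receptor differed by 3.73 (2.36 without CD90 replicate 1, adjusted p = 0.007). In 1 pair the ligand was higher and the receptor lower, Igf1 with Igf1r (3.53 and −5.29, adjusted p = 0.00605 and 0.00166). Igf1r stood at −7.05, −5.50, −2.05 and −0.59 in TRKA and 1.38, 1.26, 1.64 and 1.68 in CD90. The TRKA replicates spread over more than 6 units for Igf1r, all below the CD90 arrays. Both partners rose in 4 pairs, Gas6 with Mertk, Tgfb1 with Tgfbr2, Spp1 with Cd44 and Mif with Cd74, and both fell in 3, Pdgfc with Pdgfra, Hgf with Met and Sema3a with Nrp1. The Gas6 difference of 0.67 turned to −0.27 after quantile normalization and in the authors' values and to −0.17 with the 75th percentile over detected probes. No pair was tested as a pair.

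Of 20 genes of the cell cycle, 4 were lower and 2 higher, near the 17.8% and 16% of all genes. The median difference was −2.52 against −0.23 over all genes. With the 75th percentile over detected probes 8 were lower and 0 higher, and with each array centred on its median 2 and 4. Mki67, the proliferation antigen Ki-67, stood at 3.55, 3.89, 2.88 and 3.59 in TRKA and 3.20, 3.27, 3.35 and 3.06 in CD90, overlapping and not called (0.26, 95% interval −0.48 to 1.0). Rrm2, the regulated subunit of ribonucleotide reductase, was at least 56.0-fold lower, and Top2a (topoisomerase II), Tpx2 (a spindle factor) and Ccna2 (cyclin A2) fell by 5.92, 4.91 and 4.06 (adjusted p = 2.24e-07, 9.48e-05, 0.0493 and 0.0152). A second probe of Rrm2 was not called (−0.37, adjusted p over all probes = 0.861). Aurka, a mitotic kinase, and Pcna, the replication clamp, rose by 2.55 and 1.51 (adjusted p = 0.0156 and 0.0268). Leaving out 1 array lost the Tpx2 call in 6 of 8 cases (adjusted p = 0.0682 to 0.135) and the Pcna call in 6 of 8 (0.0516 to 0.0731).

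Markers of other cells that a culture of this tissue can hold were mostly not called. The same holds for all genes, of which 33.8% were called. Many listed markers were not tested: only 1 of 4 NK cell, 4 of 9 neutrophil and 5 of 11 olfactory genes were. T cell genes gave 0 of 4 higher and 1 lower (Cd5, −2.20, on 1 TRKA array above background), and none was called among 3 B cell, 1 NK cell, 4 neutrophil, 3 mast cell, 3 dendritic cell, 2 adipocyte and 2 erythroid genes. Of 7 endothelial genes, Pecam1, an adhesion molecule also found on myeloid cells, was at least 4.55-fold higher and Esam differed by 6.94 (adjusted p = 0.00119 and 0.00828), while Cdh5, Kdr, Vwf, Cldn5 and Tie1 were not called. Kdr was higher after quantile normalization (1.70), in the authors' values (1.41) and with median centring (1.76). Of 10 glial genes, S100b was at least 12.8-fold lower and Foxd3 higher by 0.89 (adjusted p = 1.67e-06 and 0.0438). S100b stood at 3.73, 3.72, 3.68 and 3.59 in p75 cells, and Sox10 and Gfap were not called. Of 10 epithelial genes, Cdh1 rose (4.99, adjusted p = 0.0180) and Krt8 was at least 43.9-fold lower (adjusted p = 0.00171). The calls of Foxd3 and Cdh1 did not survive leaving out single arrays (6 and 3 of 8 cases, adjusted p up to 0.113 and 0.0505).

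Of 5 genes of olfactory neurons and sustentacular cells, Adcy3 fell by 6.23, Gng8 was at least 12.5-fold lower and Stmn2 at least 7.59-fold lower (adjusted p = 3.84e-04, 3.85e-06 and 0.0467), and the mature neuron marker Omp was not called (0.11). The Stmn2 call was lost in 7 of 8 cases that left out 1 array (adjusted p = 0.068 to 0.134). Of 3 pericyte genes, Rgs5 was at least 18.4-fold lower and Mcam fell by 5.26 (adjusted p = 1.15e-06 and 4.68e-04). Col2a1 was the cartilage and bone gene of 5 that fell (−4.33, adjusted p = 0.00507). Of 5 osteoclast genes Acp5 and Atp6v0d2 were higher and Ctsk lower, as given above. Several of these counts moved with scaling: with each array centred on its median 5 endothelial, 7 epithelial, 4 glial, 3 neutrophil, 3 mast cell, 2 B cell and 2 T cell genes were higher.

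Over all genes with a symbol, the largest differences among genes measured on all 8 arrays lay outside the lists in most cases. Higher in TRKA were Cfd and Ccl12, then Tf, the iron carrier transferrin, which stood at 4.06, 4.32, 4.35 and 4.42 in TRKA and −4.50, −4.07, −4.50 and −3.08 in CD90 (8.33, SE 0.33, adjusted p = 6.53e-10). The groups were more than 7 units apart for Tf, and it stood at −0.21, −0.95, −0.48 and −0.77 in p75 and −0.52, 0.37, 0.05 and −0.01 in TRKA-TGF. Then came Abi3 (7.99), an adaptor of actin remodelling, Asgr2 (7.49), a galactose-binding lectin, Nt5dc2 (7.34), Ptpn18 (7.28), a tyrosine phosphatase, Il4r (7.04), Ncf4 (6.88), the RNA editing enzyme gene Apobec1 (6.82), C1qa (6.75) and Bst2 (6.68), which encodes tetherin. All 12 were called, with adjusted p from 6.53e-10 to 8.55e-04.

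Lower in TRKA, and measured on all 8 arrays, were Col4a2 (−8.42), Gpx8 (−8.13), a peroxidase of the endoplasmic reticulum, Rassf8 (−8.07), Aldh1l2 (−7.85), a mitochondrial folate enzyme, Itm2a (−7.78), Sptbn1 (−7.74), beta spectrin, and the protocadherin Pcdhgc5 (−7.62). Nrep (−7.54), Arhgap23 (−7.09), Ltbp1 (−6.88), which holds latent TGF-beta in the matrix, the guidance factor Sema3c (−6.80) and Rab27b (−6.67), a GTPase of secretory vesicles, completed the 12. Adjusted p ran from 5.76e-10 to 3.50e-04.

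Among genes measured on all 4 arrays of one group and on none of the other, the largest lower bounds were larger in the direction of CD90. They came from pools of unlike size, at most 24 genes measured only in TRKA and 909 only in CD90. The 8 largest in TRKA were Hlx (at least 209-fold), a homeobox gene, Lgals9 (159), galectin 9, Il1a (142), Hk3 (103), the hexokinase of myeloid cells, Mcemp1 (85.8), Il2rg (84.0), Creg1 (78.5) and Cidea (63.7). A second probe of Cidea was not called. The 8 largest in CD90 were Fgf7, Ptprd (at least 1220-fold), a receptor phosphatase of neuronal and stromal cells, Car3 (990), carbonic anhydrase 3, Nid1 (988), Nedd4 (700), a ubiquitin ligase, Sema3d (649), Lum and Col6a1. All 16 were called, with adjusted p from 2.51e-12 to 0.00167.

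Few genes were shown to be held at like levels on this scale. Of 14179 genes with a symbol, 610 had a 95% interval of the difference that lay within −1 to 1. The 10 brightest of them were Spag7 (0.42), Pigr (0.48), Kcng1 (0.47), Tcf15 (0.40), Cyb5r1 (0.46), Ptprn2 (0.50), Pax3 (0.40), Cdx1 (0.07), Flot2 (0.32) and Glra2 (0.50). Several of these, such as the muscle precursor factor Pax3 and the intestinal factor Cdx1, are known from other tissues, and the brightness of their probes in every array was not checked by another assay. With the 75th percentile over detected probes Cdx1 (−0.77) and Flot2 (−0.52) were called lower, as was Cdx1 after quantile normalization (−0.55) and in the authors' values (−0.48), and without TRKA replicate 1, Glra2, Kcng1, Pigr and Ptprn2 were called higher (0.56 to 0.60). With each array centred on its median the differences of Cdx1 and Flot2 were 2.25 and 2.50. Second probes of Pax3 and Cyb5r1 were called lower (−1.78 and −5.78, adjusted p over all probes = 0.00104 and 2.12e-06), and a second probe of Ptprn2 higher (1.30, adjusted p over all probes = 0.0425).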

How the data were processed

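RNA of 4 sorted populations was measured on 16 1-colour Agilent rat arrays, 4 per population. The authors scanned them with Agilent Feature Extraction, version 10.5 per the submitters' processing notes and 10.7.3.1 per the file headers. The deposited intensity used here is the processed signal, a linear value after background subtraction, per the file headers. The series matrix holds the authors' log2 values, whose scale and centring are not stated. Over 30362 probes they followed quantile-normalised log2 signals centred on each gene (r from 0.997 to 0.999), with column medians from −0.03 to 0.20.

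Spots of a probe were averaged (30367 probes without controls), and the log2 signal at each array's 75th percentile was subtracted. Probes well above background on at least 4 of 16 arrays were kept, and each gene was represented by its brightest probe over all arrays. Of the probes, 18468 were named by accession and 2721 by symbol through RefSeq's gene list, 421 through an older symbol, and 8757 kept the file's name. limma 3.58.1 in R 4.3.3 (data.table version 1.17.8) fitted all 16 arrays, so that TRKA and CD90 share the spread of every population, and p-values were adjusted by Benjamini-Hochberg over all genes. The fit was tested on simulated data. Probe coordinates are those of the files (rn4). A slide held whole groups only, so no fit with slide as a term was possible within TRKA and CD90.

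The members and gene lists were chosen with earlier results of these data known. Named are the marker genes, up to 4 called members a list and direction, the 12 largest differences in each direction measured on all 8 arrays, the 8 largest bounds in each direction, the 10 brightest genes with an interval within −1 to 1, and genes with a deviating probe or array. Other named genes were chosen after their values were seen. Alternatives numbered 23. Replicates are biological per the labels. Nothing there ties their numbers to animals, and the p-values measure the spread between these arrays. Deviations of same-numbered TRKA and CD90 arrays from their group means correlated at −0.004 to 0.007, and those of differently numbered arrays at −0.011 to 0.012. No arrays known to share animals were at hand for comparison, so this cannot decide whether equal numbers mark shared animals or cultures. The number of arrays limits the precision. Some genes that the rule above names are not reported here.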

Additional observations from a re-analysis of the deposited data

Results flagged for a closer look

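A single array stood apart from the other 3 of its group in 59 of 572 groups of 4 levels examined, 26 in TRKA and 33 in CD90, where the gap to the nearest array took most of the group's range, more than the critical value of Dixon's test. Chance flags about 1 in 20 groups. The genes examined are those named here, some of them because an array stood apart, and some levels lay at background. The 59 flagged groups can therefore not be weighed against that rate.

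TRKA replicate 1 lay above the rest for Cxcl12 (0.09), Fads1 (−1.80), Il6st (−3.29), Lamb1 (−0.24), Lox (−2.21) and Scarb1 (0.47), and below the rest for Aldh1l2 (−6.25). In TRKA, replicate 2 lay above the rest for Cd55 (0.16), Loxl2 (0.59) and Tgfa (1.95), and below the rest for Cd53 (−0.29). Replicate 3 of TRKA lay above the rest for Alox5 (−0.04), Gfap (−4.75), Ltbp1 (1.47), Lum (−6.45), Meox2 (−5.93), Osmr (−0.28), Postn (0.18), RT1-DOb (−3.01), Rrm2 (−5.79) and Sptbn1 (−4.26), and below the rest for Clec7a (−6.74), Mrc1 (0.65) and Nckap1l (−7.02). The fourth TRKA array lay above the rest for Egfr (1.29) and Fads2 (−1.19).

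CD90 replicate 1 lay above the rest for Aif1 (3.49), Cd53 (−6.33), Csf1r (1.34) and Ptpn18 (−2.23), and below the rest for C3ar1 (−6.23) and Cxcl2 (−8.29). In CD90, replicate 2 lay above the rest for Bmp5 (2.76), Cd163 (−3.24), Cldn5 (−3.89), Glra2 (6.68), Pax3 (7.01), Sox10 (−0.79), Spi1 (−2.76) and Tfec (−1.99), and below the rest for Apobec1 (−6.24), Csf2ra (−2.90) and Mertk (−7.62). Replicate 3 of CD90 lay above the rest for Alox5ap (0.19), Esam (0.37), Tbxas1 (−2.02) and Tie1 (−1.52), and below the rest for Fcgr3a (−7.21) and Sdc3 (−6.48). The fourth CD90 array lay above the rest for Alox5 (−3.42), Cdh1 (−4.06), Clec4e (−6.86), Col12a1 (4.52) and Trem3 (−2.04), and below the rest for Blnk (−6.22), Ccl12 (−7.32), Col6a2 (0.47) and Ppib (4.71).

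The share of spots flagged positive and significant was 85.1% on CD90 replicate 2, against 82.3% to 82.6% on the other CD90 arrays.

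Of the 13 macrophage markers, Cd163, Cd53, Csf1r and Aif1 each had 1 CD90 array apart from the rest and Mrc1 and Cd53 1 TRKA array, and the TRKA and CD90 arrays did not overlap in these 5 genes. Of the fibroblast markers, Lum and Postn had TRKA replicate 3 above the other TRKA arrays, and without that array both stayed called lower (adjusted p = 0.000451 and 2.51e-10).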

How the results depend on the processing

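Of the 207 named genes that were called, 168 kept their call and direction in every one of the settings in which they were tested (20 to 23 per gene, since filters drop some), 12 lost the call without 1 array, and 24 of all 280 named genes turned direction, with a call on at least one side, in some setting. Leaving out 1 array at a time gave 2932 to 3503 genes higher and 3136 to 3804 lower. With the replicate number as a block there were 3184 higher and 3563 lower, and 6520 of the 6956 calls were kept. It ended the calls of 2 named genes and added 1. The counts moved most with scaling. Quantile normalization gave 5447 higher, the authors' values 5106, the 75th percentile over detected probes 1535 higher and 6652 lower, and centring on the median 10355 higher and 1552 lower. A fit of only the 8 TRKA and CD90 arrays gave 2365 higher and 2377 lower, and kept 4642 of the 6956 calls. The other 2314 calls thus rested on the spread shared with the p75 and TRKA-TGF arrays. With array weights 5162 calls were kept. An alternative chosen after seeing the data, which kept probes above background on all 8 arrays, gave 1029 lower, since it drops the genes that were at background in one group. The share of spots above background differed by −11.3 percentage points with the positive and significant flag (exact permutation p = 0.0286).

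Directions that turned were as follows. After quantile normalization the differences were −0.55 for Cdx1, −0.27 for Gas6, −0.032 for Igfbp3, 1.70 for Kdr, −0.74 for P4ha2, 0.95 for RT1-Ba and 1.86 for RT1-DOb. With the 75th percentile over detected probes they were −0.77 for Cdx1, −0.52 for Flot2, −0.17 for Gas6, −0.081 for Igfbp3 and −0.64 for P4ha2. In the authors' values they were −0.48 for Cdx1, −0.27 for Gas6, 1.41 for Kdr, −0.72 for P4ha2 and 1.62 for RT1-DOb. Centring on the median gave 0.82 for Col1a1, 0.35 for Fn1, 1.72 for Gli1, 2.12 for Hvcn1, 1.76 for Kdr, 1.96 for P3h1, 1.29 for Plod2, 2.07 for Plod3, 1.19 for RT1-Ba, 1.99 for RT1-DOb, 1.70 for Sdc4, 1.78 for Tead3, 1.92 for Tgfb2, 1.66 for Timp1 and 1.55 for Vegfa. The mean over probes gave −0.37 for Cp, −2.66 for Cyb5r1 and −0.69 for Pax3, and probes measured on all 8 arrays gave 0.67 for Scarb1. Apart from the scalings and filters themselves, the cause was not tested.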
